A study of Mus musculus with 12 samples.

Results

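The liver response to an inhibitor of intestinal bile acid uptake, given on top of a high-fat diet, was described across all genes of 8 liver RNA-seq libraries out of 12 in the series. The 4 libraries called HFD+ASBTi came from mice on a high-fat diet with 0.2% cholesterol and 0.006% SC-435, and the 4 called HFD from mice on the same diet without SC-435. Another 4 libraries from mice on chow entered the estimate of the spread, the filter on low values and the choice of transcript row. Their levels are given as a reference. All mice were male C57/Bl6J, began their diets at 4 weeks of age and stayed on them for 16 weeks, and no genetic change is labelled in any group. SC-435 blocks ASBT, the sodium-dependent bile acid transporter encoded by Slc10a2. The members are the genes of the deposited table, 24007 symbols with 1 transcript row each, of which 12228 passed the filter on low values and were tested. Whether the 4 libraries of a group came from 4 animals is not labelled, and every p-value rests on library spread that could be technical.

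Bile acids are made from cholesterol in hepatocytes, secreted into bile and taken back up in the ileum by ASBT. Bile acids that enter ileal cells induce the hormone FGF15, which reaches the liver and, through the receptor FGFR4 with its co-receptor beta-klotho, represses Cyp7a1, whose enzyme sets the pace of bile acid synthesis. Blocking ASBT raises the loss of bile acids in faeces and with it the demand for cholesterol. Hepatocytes meet low sterol levels through SREBP2, which induces the enzymes of cholesterol synthesis, and high sterol levels through LXR, which induces the sterol exporters Abcg5 and Abcg8 and the lipogenic factor Srebf1.

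Levels are given as RPM, reads scaled to library size, which is the deposited RPKM multiplied by the genomic span of the gene, so levels of different genes are not compared with each other. Changes are log2 differences of RPM + 0.5, HFD+ASBTi minus HFD. From the steps between low values, depth was estimated at 10300000 to 13230000 reads in HFD and at 10710000, 11250000, 8960000 and 9190000 reads in HFD+ASBTi 1 to 4. Summed levels of 19 hepatocyte markers were 36442 to 51444 RPM in HFD and 37867 to 41985 in HFD+ASBTi. Of the markers of muscle and kidney, 8 of 12 were at 0 in all 8 libraries, and so were 10 of 17 of pancreas and intestine. The summed level of those 17 was 60.5 to 92.8 RPM in HFD, 45.2 to 59.6 RPM in HFD+ASBTi and 25.8 to 31.8 RPM in chow. Most of it was Fabp2, an intestinal fatty acid-binding protein, with 47.2 to 80.4 RPM in HFD and 32.2 to 43.8 RPM in HFD+ASBTi, and its source was not tested. In whole liver, fewer cells of a type and less RNA per cell cannot be told apart.

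Of the 12228 genes tested, 6 passed the test (limma, Benjamini-Hochberg adjusted p under 0.05), which is 0.0491% of them. The receptor gene Fgfr4 and the metalloprotease gene Bmp1 rose with the inhibitor (2 genes, 0.0164%). Maff, Pla2g6, Krt23 and the long noncoding RNA 4931408D14Rik fell (4 genes, 0.0327%). At an unadjusted p under 0.05 there were 956 genes (7.82%), of which 519 were higher (4.24%) and 437 lower (3.57%). The 4 libraries of one group lay wholly above those of the other for 443 genes (3.62%), of which 255 were higher with the inhibitor (2.09%) and 188 lower (1.54%). The median log2 change over all genes was 0.01, which is the reference for counts of signs in the lists below.

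Fgfr4, the FGF15 receptor of hepatocytes, stood at 13.1, 10.6, 10.6 and 13 RPM in HFD 1 to 4 and at 19.2, 18, 21.1 and 19.9 RPM in HFD+ASBTi 1 to 4. All 4 treated libraries were above all HFD libraries, and the chow libraries (16.1 to 20.1 RPM) lay in the treated range or just under it. The rise was 1.65-fold, from 11.8 ± 1.42 to 19.5 ± 1.28 RPM (SD, n = 4 each; log2 change 0.71 ± 0.11, SE; limma adjusted p = 0.0216). Bmp1, a secreted metalloprotease that trims procollagens, had 43.2, 49.5, 37.6 and 41.8 RPM in HFD and 79.8, 89.7, 65.6 and 74.0 RPM in HFD+ASBTi. No library of one group reached the range of the other, and chow (71.5 to 94.1 RPM) overlapped the treated libraries. Its rise was 1.80-fold, from 43.0 ± 4.91 to 77.3 ± 10.1 RPM (log2 change 0.84 ± 0.12; limma adjusted p = 0.0194).

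Among the genes that fell, the transcript 4931408D14Rik, annotated as a long noncoding RNA, had 37.0, 21.2, 21.6 and 50.3 RPM in HFD and 8.31, 8.53, 6.92 and 6.2 RPM in HFD+ASBTi. HFD libraries were spread widely, while the treated libraries were close together and near chow, whose mean was 6.36 RPM. The fall was 4.34-fold (log2 change -1.96 ± 0.23; limma adjusted p = 0.00801). Maff, a small MAF transcription factor that lacks an activation domain of its own, had 10.1, 10.3, 9.84 and 8.5 RPM in HFD and 2.84, 2.34, 4.41 and 3.19 RPM in HFD+ASBTi. It fell 3.04-fold (log2 change -1.49 ± 0.19; limma adjusted p = 0.0132), and 3 of the 4 treated libraries were also under the lowest chow library (3.71 RPM). Pla2g6, a calcium-independent phospholipase A2, had 38.0, 49.6, 38.9 and 35.4 RPM in HFD and 25.3, 19.8, 23.4 and 17.6 RPM in HFD+ASBTi. Treated libraries lay between HFD and chow (mean 14.6 RPM), and the fall was 1.88-fold (log2 change -0.90 ± 0.13; limma adjusted p = 0.0194). Pla2g6 and Maff are next to each other in the RefSeq gene table, on opposite strands with 0 annotated genes between them.

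Krt23, a type I keratin, fell from a low level. Its values were 3.34, 4.18, 2.58 and 5.6 RPM in HFD and 0.187, 1.25, 0.67 and 0.218 RPM in HFD+ASBTi, which is an estimated median of 39 reads against 4 reads. The groups did not overlap, chow libraries were at 0.265 to 0.563 RPM, and the fall was 6.76-fold (log2 change -2.10 ± 0.30; limma adjusted p = 0.0194). Krt23 passed the filter of 1 RPM in 4 libraries only through HFD, the group where it was high. All chow libraries and HFD+ASBTi 1, 3 and 4 were under 1 RPM. All 6 genes kept their direction in every alternative fit, but their calls were close to the threshold. With only the 8 HFD and HFD+ASBTi libraries in the fit, Maff alone was called, and the adjusted p of the other 5 was 0.0719 to 0.117. Leaving out 1 library ended the call of 4931408D14Rik without HFD+ASBTi 4 (0.057), of Maff without HFD 2 or 3 or HFD+ASBTi 1 or 4 (0.0516 to 0.064), of Bmp1 without HFD 3 or 4 or HFD+ASBTi 1, 2 or 4 (0.0533 to 0.0874), of Pla2g6 without HFD 2 or 3 or HFD+ASBTi 2 or 4 (0.0716 to 0.0876), of Krt23 without HFD 2, 3 or 4 or HFD+ASBTi 1 or 4 (0.055 to 0.0975), and of Fgfr4 without HFD 2 or 3 or HFD+ASBTi 1, 2 or 4 (0.0533 to 0.112). Scaling the libraries by median of ratios or by quantiles also ended the call of Fgfr4 (adjusted p = 0.0792 and 0.0581).

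**Figure D1:**
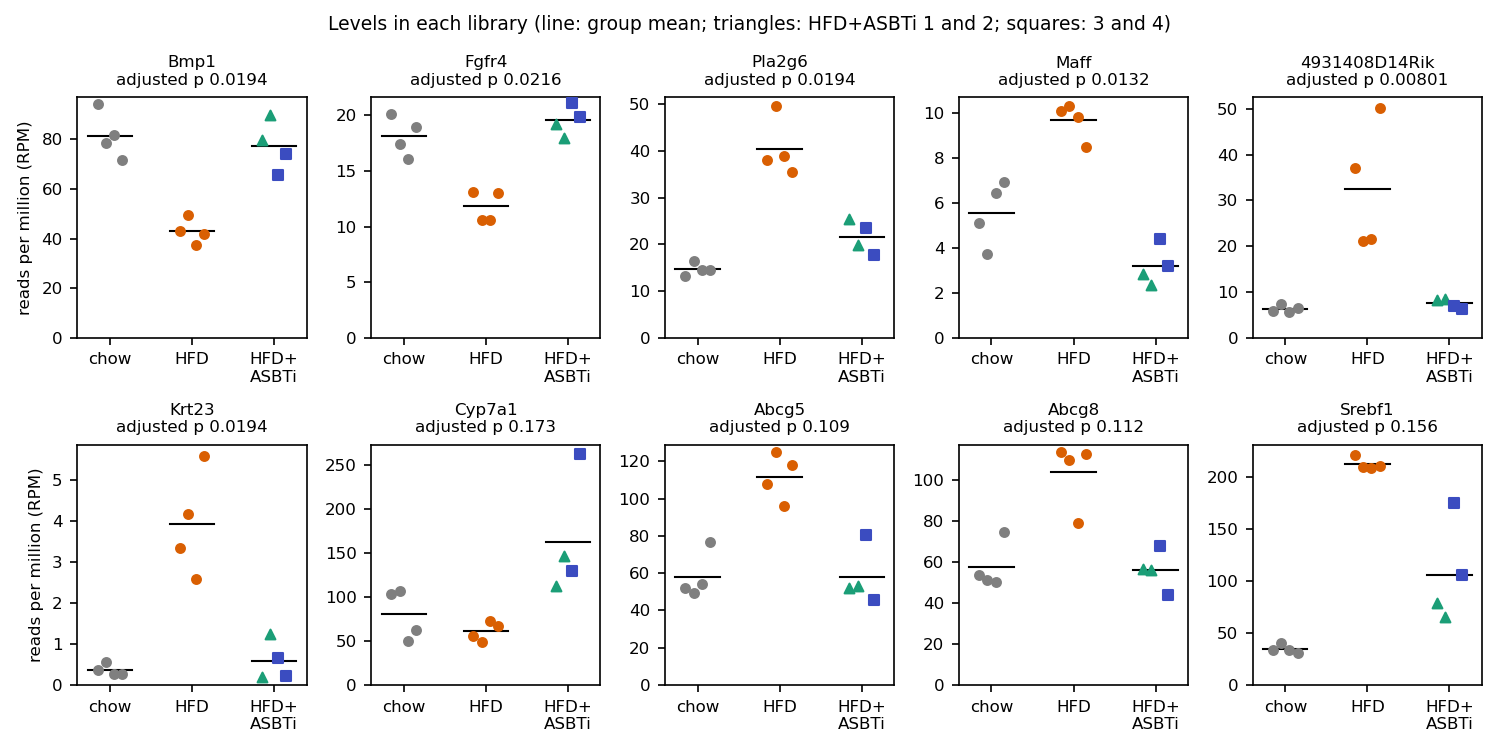
Level in RPM (vertical axis, from 0) of the 6 genes that passed the test and of Cyp7a1, Abcg5, Abcg8 and Srebf1 in each chow, HFD and HFD+ASBTi library; lines are group means, and triangles and squares separate HFD+ASBTi 1 and 2 from 3 and 4. The HFD and HFD+ASBTi points do not overlap in these 10 genes, which were picked with their values known. Over all genes tested, 3.62% had no overlap. Bmp1 is an example, at 65.6 to 89.7 RPM with the inhibitor against 37.6 to 49.5 RPM without it.

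Promoter windows of called genes are shown because Fgfr4 belongs to the bile acid signalling list and because Krt23 and Maff share a motif. The windows run from 250 bases before to 50 bases after an annotated start, in RefSeq on GRCm38.p6, and capitals mark the E-box CACGTG, the site of clock factors and of other basic helix-loop-helix proteins. The deposited values were aligned to another build, mm9. Fgfr4 lies at chr13:55152568-55152867 on the plus strand and holds neither an E-box nor a sterol regulatory element (TCACNCCAC), searched on both strands. Krt23 lies at chr11:99493071-99493370 on the minus strand with 1 E-box that begins 169 bases before the start. For Maff, 1 of 3 windows holds an E-box; it lies at chr15:79347270-79347569 on the plus strand and the E-box begins 191 bases before the start. An E-box was found for 2 of 5 called genes with a window (40%) and for 8.09% of 27025 genes with one. This difference rests on 5 genes and was not tested, and a gene with several windows has more chances of a match. Of the 2 genes with a match, Krt23 entered the test only through its level in HFD.
Fgfr4: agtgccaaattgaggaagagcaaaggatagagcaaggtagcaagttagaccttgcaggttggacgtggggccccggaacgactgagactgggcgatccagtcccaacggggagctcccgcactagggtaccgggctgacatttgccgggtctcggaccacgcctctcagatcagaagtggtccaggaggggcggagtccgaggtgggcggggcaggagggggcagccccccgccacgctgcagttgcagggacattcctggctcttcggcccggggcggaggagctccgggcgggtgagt
Krt23: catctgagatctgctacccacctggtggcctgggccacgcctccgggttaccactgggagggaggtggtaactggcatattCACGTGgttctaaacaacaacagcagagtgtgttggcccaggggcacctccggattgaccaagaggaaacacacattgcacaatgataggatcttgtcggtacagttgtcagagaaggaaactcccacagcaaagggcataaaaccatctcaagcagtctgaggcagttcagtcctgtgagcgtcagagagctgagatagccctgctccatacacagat
Maff: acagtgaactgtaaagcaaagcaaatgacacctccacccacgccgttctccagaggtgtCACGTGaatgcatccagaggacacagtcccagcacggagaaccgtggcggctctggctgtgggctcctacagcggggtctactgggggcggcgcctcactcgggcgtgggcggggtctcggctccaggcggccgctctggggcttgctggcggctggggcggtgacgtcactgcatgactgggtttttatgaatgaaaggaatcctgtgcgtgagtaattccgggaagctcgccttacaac

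Genes of bile acid synthesis had mostly higher means with the inhibitor, but none of the 20 tested passed the test. Cyp7a1 had 56.1, 48.5, 72.7 and 67.2 RPM in HFD and 113, 147, 130 and 263 RPM in HFD+ASBTi. Every treated library was above every HFD library, HFD+ASBTi 4 stood highest, and chow ran from 49.8 to 107 RPM. The ratio of means was 2.67 (163 ± 67.9 against 61.1 ± 10.9 RPM; log2 change 1.35, 95% interval 0.76 to 1.94; limma adjusted p = 0.173). Cyp8b1, the 12-alpha-hydroxylase that directs synthesis to cholic acid, had 240, 222, 334 and 246 RPM in HFD and 461, 713, 347 and 278 RPM in HFD+ASBTi. Treated libraries 3 and 4 were within or close to the HFD range, and the log2 change was 0.71 ± 0.25 (limma adjusted p = 0.540). Cyp27a1, which opens the alternative route by oxidising the side chain, had a log2 change of 0.35 ± 0.14, and Cyp7b1, the 7-alpha-hydroxylase of that route, one of 0.60 ± 0.41 (limma adjusted p = 0.575 and 0.751). Baat, which joins bile acids to taurine, had 136 to 161 RPM in HFD and 166 to 197 RPM in HFD+ASBTi, without overlap (log2 change 0.23; limma adjusted p = 0.578). Of the 20 genes, 6 were higher and 1 was lower at an unadjusted p under 0.05, beside 4.24% and 3.57% of all genes. The list median was 0.14 beside 0.01 for all genes, and 0.07 and 0.08 without HFD+ASBTi 2 or 3.

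In bile acid transport and FXR signalling, Fgfr4 was the 1 gene of 17 tested that passed. Its co-receptor gene Klb had 12.9, 12, 13 and 11.5 RPM in HFD and 10.6, 12.6, 16 and 12 RPM in HFD+ASBTi. Those ranges overlapped (log2 change 0.03, 95% interval -0.25 to 0.32; limma adjusted p = 0.974). Nr0b2, a repressor induced by the bile acid receptor FXR, had 28.9 to 52.2 RPM in HFD and 16.9 to 46.5 RPM in HFD+ASBTi (log2 change -0.25; limma adjusted p = 0.856). For Nr1h4, which encodes FXR, the log2 change was 0.10 (limma adjusted p = 0.890). For Slc10a1, the uptake transporter of the hepatocyte, it was 0.15 (limma adjusted p = 0.902). Abcb11, which exports bile acids into bile, was at 111 to 171 RPM in HFD and 143 to 224 RPM in HFD+ASBTi (log2 change 0.38; limma adjusted p = 0.570). Slc10a2, the gene of the inhibited transporter, was low in liver at 3.75 to 6.48 RPM in HFD and 3.69, 1.70, 7.17 and 8.83 RPM in HFD+ASBTi (limma adjusted p = 0.992). The list median was 0.03, with 3 genes higher and 0 lower at an unadjusted p under 0.05, beside 4.24% and 3.57% of all genes.

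The enzymes of cholesterol synthesis had higher means with the inhibitor in 19 of 20 tested genes, and none of them passed the test across all genes. From mevalonate to squalene the median log2 change of 10 genes was 0.71, and from lanosterol to cholesterol it was 0.55, beside 0.01 for all genes. At an unadjusted p under 0.05, 4 and 6 of the 10 genes were higher and 0 were lower, beside 4.24% and 3.57% of all genes. Idi1, the isopentenyl diphosphate isomerase, had 9.84, 9.63, 32.2 and 16.5 RPM in HFD and 35.3, 36.5, 48.6 and 93.5 RPM in HFD+ASBTi. All treated libraries exceeded all HFD libraries, by a narrow margin over HFD 3 (log2 change 1.68 ± 0.41; limma adjusted p = 0.308). Tm7sf2, a sterol reductase of the later steps, had 12.9, 11.9, 20.1 and 15.3 RPM in HFD and 21.3, 25.4, 43.4 and 29.7 RPM in HFD+ASBTi, again without overlap (log2 change 0.95; limma adjusted p = 0.234).

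Levels of these genes also differed between libraries of 1 group. Sqle, squalene epoxidase, had 6.29, 5.92, 16.3 and 6.95 RPM in HFD and 13.1, 11.4, 27.1 and 36.0 RPM in HFD+ASBTi. HFD 3 was above treated libraries 1 and 2, and treated libraries 3 and 4 were highest (log2 change 1.22; limma adjusted p = 0.466). Cyp51, lanosterol demethylase, was also highest in HFD+ASBTi 3 and 4 and in HFD 3 of its group, with 19.6, 15.8, 42.2 and 27.7 RPM in HFD and 39.6, 46.2, 60.5 and 98.8 RPM in HFD+ASBTi (limma adjusted p = 0.332). Against HFD, the median of the mevalonate list was 0.25 for HFD+ASBTi 1 and 2 and 1.33 for 3 and 4, and that of the lanosterol list was 0.21 and 1. Leaving out 1 library gave medians of 0.45 to 0.94 and 0.37 to 0.75, lowest without HFD+ASBTi 3 and 4 respectively and highest without HFD 3 in both lists. The sterol regulatory element was found in the promoter windows of 0 of 14 genes of both lists with a window, and in 1.44% of all genes with one.

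**Figure D2:**
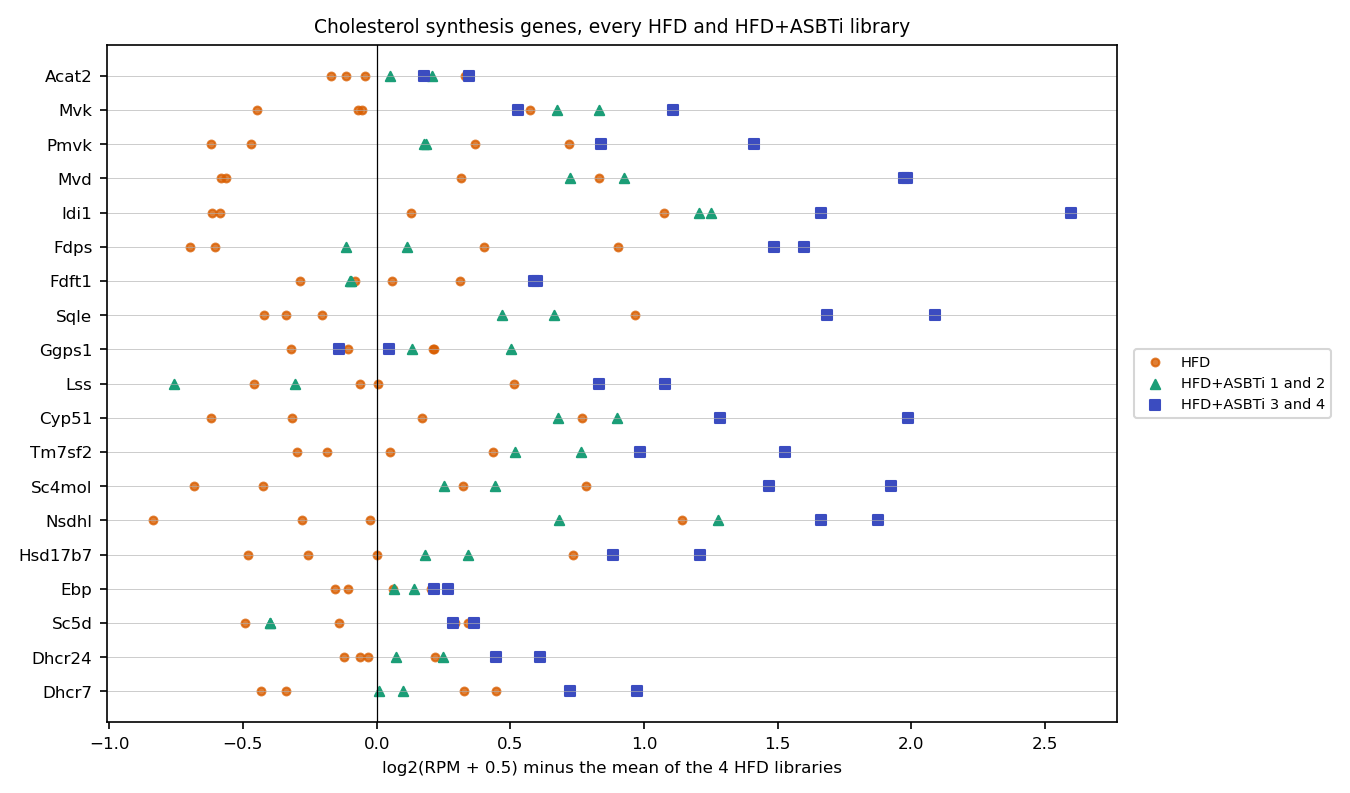
Difference in log2(RPM + 0.5) from the mean of the 4 HFD libraries (horizontal axis) for 19 genes of cholesterol synthesis, with 1 point for each HFD and HFD+ASBTi library. HFD+ASBTi 3 and 4 (squares) lie right of HFD+ASBTi 1 and 2 (triangles) for most genes, as in Sqle at 27.1 and 36.0 RPM against 13.1 and 11.4 RPM.

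Regulators and uptake genes of the sterol response gave 17 tested genes, of which 0 passed the test. At an unadjusted p under 0.05, 3 were higher and 1 was lower, beside 4.24% and 3.57% of all genes. Their median was 0.14, which was 0.02 without HFD 1 and 0.09 without HFD+ASBTi 3. Srebf2, which encodes SREBP2, had 14.8, 20.7, 25.1 and 23.2 RPM in HFD and 25.9, 28.7, 30.6 and 35.4 RPM in HFD+ASBTi. The groups were separated by a small gap (log2 change 0.53; limma adjusted p = 0.466). Lrp1, an endocytic receptor for lipoprotein remnants, was also separate, at 197 to 296 RPM against 296 to 308 RPM (limma adjusted p = 0.415). Insig2, which retains the SREBP complex in the endoplasmic reticulum, had 36.8 to 67.8 RPM in HFD, 121 and 134 RPM in HFD+ASBTi 1 and 2, and 22.8 and 24.0 RPM in HFD+ASBTi 3 and 4. Its treated pairs therefore stood above and below the whole HFD range.

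The sterol exporters were lower with the inhibitor without passing the test. Abcg5 had 108, 125, 95.8 and 118 RPM in HFD and 52.1, 53.0, 80.7 and 45.4 RPM in HFD+ASBTi, and its partner Abcg8 had 114, 110, 79.1 and 113 RPM against 56.8, 56.1, 67.8 and 43.8 RPM. For both genes the groups did not overlap, and the treated means (57.8 ± 15.6 and 56.1 ± 9.82 RPM) were close to those of chow (58.1 and 57.5 RPM). Their log2 changes were -0.98 ± 0.17 and -0.89 ± 0.16 (limma adjusted p = 0.109 and 0.112). Both were called without HFD+ASBTi 3, the treated library with the highest level (limma adjusted p = 0.0083 and 0.0407). Over all alternative fits the adjusted p of each reached 0.363. The annotated spans of the pair overlap and stranded counting is not stated, so reads of the overlap could not be told apart. The same limit holds for other named genes that overlap an annotated gene, among them Bmp1, Pla2g6, Srebf1, Nr1d1, Per3 and Dbp. Abca1, which exports cholesterol to lipoproteins, had 66.9 to 86.5 RPM in HFD and 55.2 to 75.9 RPM in HFD+ASBTi (log2 change -0.22; limma adjusted p = 0.711). Of 10 LXR targets and sterol efflux genes tested, 1 was higher and 2 were lower at an unadjusted p under 0.05. Over all genes the shares were 4.24% and 3.57%. The median of the list was -0.22 (-0.12 without HFD 4).

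Srebf1, the driver of fatty acid synthesis, had 222, 210, 209 and 211 RPM in HFD and 78.6, 65.4, 175 and 106 RPM in HFD+ASBTi. HFD libraries were nearly equal, every treated library was lower, and chow was lower still at 31.3 to 40.6 RPM. The ratio of HFD to HFD+ASBTi means was 2 (log2 change -1.10, 95% interval -1.58 to -0.63; limma adjusted p = 0.156). Without HFD+ASBTi 3 Srebf1 was called (limma adjusted p = 0.00309), while over all alternative fits its adjusted p reached 0.538. Lipogenic enzymes had wide intervals. Fasn, fatty acid synthase, had a log2 change of -0.08 with an interval of -1.06 to 0.89, and Scd1, stearoyl-CoA desaturase, one of -1.04 with an interval of -2.11 to 0.03 (limma adjusted p = 0.988 and 0.648). Thrsp, a lipogenic nuclear protein, had 232 to 616 RPM in HFD, 76.6 and 62.2 RPM in HFD+ASBTi 1 and 2, and 797 and 321 RPM in 3 and 4. For 24 fatty acid synthesis genes 0 were higher and 1 lower at an unadjusted p under 0.05, beside 4.24% and 3.57% of all genes. Their median was -0.12. That median was -0.63 for HFD+ASBTi 1 and 2 and 0.28 for 3 and 4, and leaving out 1 library gave -0.38 without HFD+ASBTi 3, -0.23 without HFD 2 and -0.20 without HFD 1. It gave -0.04 without HFD 4, -0.02 without HFD+ASBTi 1, 0.01 without HFD+ASBTi 2 and 0.04 without HFD 3.

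Most genes of lipid droplets and of fatty acid oxidation had negative changes with the inhibitor, and none passed the test. Cidec, a lipid droplet protein, had 8.57, 41.2, 49.2 and 60.0 RPM in HFD and 17.6, 12.4, 6.58 and 8.37 RPM in HFD+ASBTi. HFD 1 stood within the treated range, apart from the other HFD libraries (log2 change -1.57 ± 0.47; limma adjusted p = 0.442). Without HFD 1 the gene was called (limma adjusted p = 0.0172), while over all alternative fits its adjusted p reached 0.791. The log2 change was -1.71 for Cidea, a related protein, and -0.59 for Plin2, a droplet coat protein (limma adjusted p = 0.585 and 0.599). Plin4, another coat protein, had 28.7 to 95.7 RPM in HFD, 96.1 and 72.1 RPM in HFD+ASBTi 1 and 2, and 8.59 and 6.95 RPM in 3 and 4. Of 25 triglyceride assembly and droplet genes, 20 had negative changes. At an unadjusted p under 0.05, 5 were lower and 0 higher, beside 3.57% and 4.24% of all genes. The median was -0.17 (-0.04 for HFD+ASBTi 1 and 2 and -0.32 for 3 and 4), beside 0.01 for all genes. Plin2 had 211 to 389 RPM in HFD, 287 and 303 RPM in the first pair, and 135 and 156 RPM in the second, so only the second pair was below the HFD range. Plin5, a further coat protein, had a positive change (log2 change 0.39; limma adjusted p = 0.720), with 32.5 and 33.4 RPM in the first pair against 13.1 to 19.6 RPM in HFD. Adipose markers had a median log2 change of -0.92 over 6 tested genes (-1.41 without HFD 1). Cidec, Cidea, Fabp4 and Lipe are on both lists, and the part of adipose tissue in these values was not tested. The summed level of the 10 adipose markers was 850 to 1734 RPM in HFD and 653 to 1181 RPM in HFD+ASBTi, most of it Pck1, which hepatocytes also express.

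Of 40 fatty acid oxidation and ketogenesis genes, 34 had negative changes. At an unadjusted p under 0.05, 7 were lower and 0 higher, beside 3.57% and 4.24% of all genes. The list median was -0.14 beside 0.01 for all genes. It was -0.22 without HFD 1 or HFD+ASBTi 1, -0.09 without HFD 2 and -0.08 without HFD+ASBTi 4. Acadl, a mitochondrial dehydrogenase, and Acaa1b, a peroxisomal thiolase, had lower values without overlap (log2 changes -0.28 and -0.58; limma adjusted p = 0.530 and 0.570). Cpt1a, which admits fatty acids to mitochondria, had 225 to 358 RPM in HFD and 240 to 246 RPM in HFD+ASBTi (limma adjusted p = 0.596). Ppara, the receptor that induces these genes, had 219 to 319 RPM in HFD and 179 to 232 RPM in HFD+ASBTi (limma adjusted p = 0.570).

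The acute phase list, which holds plasma proteins and the transcription factors Cebpb and Cebpd, had positive changes in 23 of 25 genes, with 0 called. At an unadjusted p under 0.05, 8 were higher and 0 lower, beside 4.24% and 3.57% of all genes. Lbp, the lipopolysaccharide-binding protein, had 20.7, 23.7, 19.2 and 17.1 RPM in HFD and 40.0, 39.0, 20.9 and 51.1 RPM in HFD+ASBTi. HFD+ASBTi 3 stood inside the HFD range while the other treated libraries lay above it, up to the lower edge of chow (51 to 65.3 RPM) (log2 change 0.83; limma adjusted p = 0.310). Saa2, a serum amyloid, had 18 to 175 RPM in HFD and 2019, 199, 8.92 and 1208 RPM in HFD+ASBTi (limma adjusted p = 0.690). The list median was 0.48, and 0.35 to 0.65 when 1 library was left out. Macrophage and Kupffer cell markers had a median of 0.25 over 16 tested genes (0.42 without HFD+ASBTi 3 and 0.15 without HFD+ASBTi 2), with a summed level of 266 to 328 RPM in HFD and 260 to 448 RPM in HFD+ASBTi. Their part in the acute phase values was not tested.

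Other liver programmes gave 0 called genes. Male-biased genes had a median of 0.49 over 19 genes, which was 0.09 without HFD 4. Of them 3 were higher and 0 lower at an unadjusted p under 0.05, beside 4.24% and 3.57% of all genes. Susd4, of that list, had 14.1, 14, 13.9 and 1.06 RPM in HFD and 16.8 to 31.1 RPM in HFD+ASBTi, with HFD 4 far below all others of both groups (limma adjusted p = 0.586). Of 30 endoplasmic reticulum stress genes 0 were higher and 6 lower at an unadjusted p under 0.05, beside the same 4.24% and 3.57% (median -0.06). Derl3, which takes part in the disposal of misfolded proteins, had 2.23 to 12.9 RPM in HFD and 0.443 to 3.99 RPM in HFD+ASBTi (limma adjusted p = 0.491). Cyp3a11, a main drug-oxidising cytochrome, had 106, 189, 305 and 512 RPM in HFD and 87.6, 138, 91.0 and 38.2 RPM in HFD+ASBTi. HFD 1 and HFD+ASBTi 2 overlapped, both groups were far below chow (1929 to 2751 RPM), and the log2 change was -1.55 ± 0.42 (limma adjusted p = 0.369). Cyp3a genes have close copies, and how shared reads were split is not stated. Collagen and stellate cell genes had a median of -0.29 over 32 genes (0.03 for HFD+ASBTi 1 and 2 and -0.54 for 3 and 4, with -0.58 without HFD 1, -0.16 without HFD 3, -0.12 without HFD 4 and -0.18 without HFD+ASBTi 4). Col1a1, the main fibrillar collagen, had 0.616 to 4.64 RPM in HFD and 0.469 to 2.01 RPM in HFD+ASBTi (limma adjusted p = 0.726), while Tnf and Ccl2, inflammatory mediators, were under the filter.

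**Figure D3:**
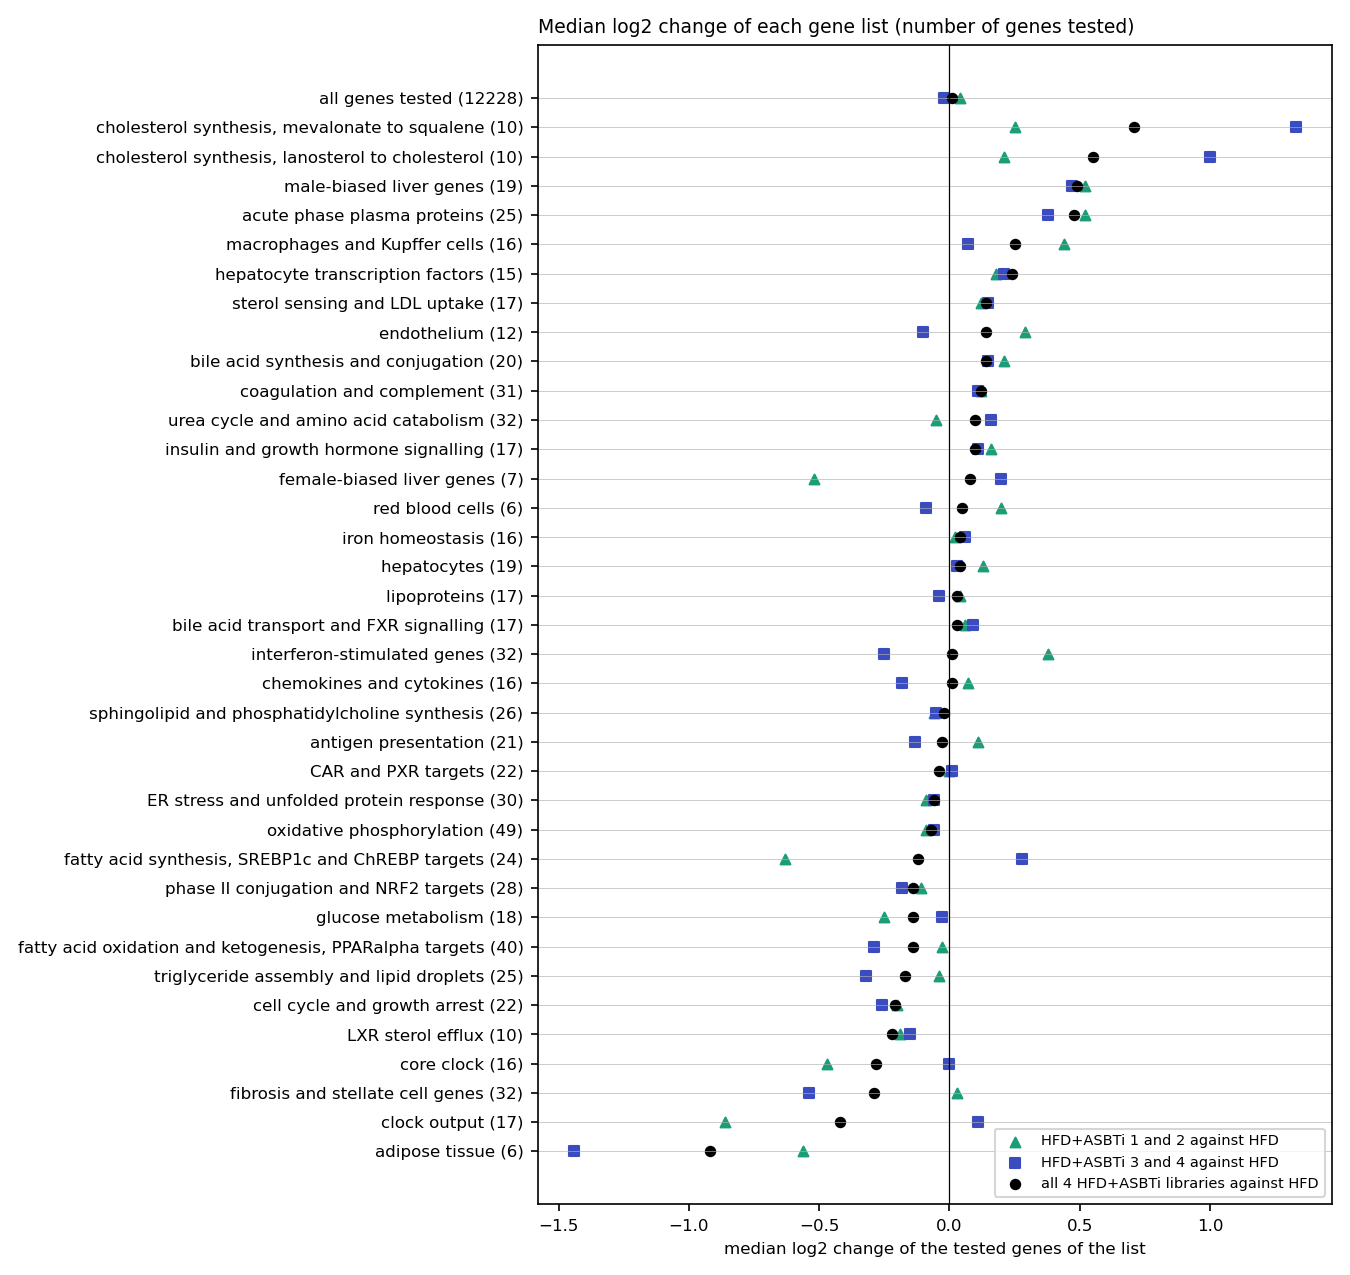
Median log2 change from HFD (horizontal axis) of the tested genes of each list with at least 5 of them, for all 4 HFD+ASBTi libraries (black), for libraries 1 and 2 (triangles) and for 3 and 4 (squares). All genes sit at 0.01, 0.04 and -0.02, and the cholesterol synthesis lists lie highest for all 4 libraries and for 3 and 4, but not for 1 and 2, where acute phase and male-biased genes are at 0.52. The pairs lie on opposite sides of 0 for several lists, among them fatty acid synthesis, clock output and interferon-stimulated genes (0.38 and -0.25).

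The treated libraries fell into pairs by label number and by clock genes. HFD+ASBTi 1 and 2 are labelled 651 and 652, HFD+ASBTi 3 and 4 are labelled 667 and 668, and HFD 1 to 4 are labelled 661 to 664. The clock pattern was known when the comparison was chosen, so it is described without a test. The clock is a feedback loop in which Arntl and Clock activate Per, Cry and Rev-erb genes through E-boxes, and the products repress that activation in turn; in liver it gives daily rhythms to many metabolic genes. Arntl had 0.381, 1.07, 0.663 and 0.377 RPM in HFD, 3.08 and 3.82 RPM in HFD+ASBTi 1 and 2, and 0.669 and 0.543 RPM in 3 and 4. These levels are low, with an estimated median of 6 reads in HFD and 19 reads in HFD+ASBTi. Per3, a repressor of the loop, had 37.2, 40.9, 53.4 and 56.5 RPM in HFD, 13.9 and 11 RPM in HFD+ASBTi 1 and 2, and 64.8 and 45.7 RPM in 3 and 4. In both genes the first pair lay outside the HFD range; the second pair lay within it for Arntl, while for Per3 HFD+ASBTi 3 was above it. Per1 had 14 to 26.4 RPM in HFD, 5.78 and 8.07 RPM in the first pair, and 43.8 and 28.8 RPM in the second, so the pairs stood below and above all HFD libraries. Ciart, a repressor listed as Gm129 in the table, had 5.63 to 16.4 RPM in HFD, 2.24 and 2.67 RPM in the first pair, and 19.2 and 10.9 RPM in the second. Nr1d1, which encodes Rev-erb alpha, was high in the first pair at 101 and 95 RPM, against 37.5 to 63.7 RPM in HFD and 44.9 and 49.0 RPM in the second pair. Csnk1d, a clock kinase, was alike in all, at 41.3 to 43.7 RPM in HFD and 37.7 to 43.7 RPM in HFD+ASBTi.

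Output genes of the clock were not uniform. Usp2, a deubiquitinase, had 18 to 27.2 RPM in HFD, 3.08 and 3.56 RPM in HFD+ASBTi 1 and 2, and 28.9 and 19.4 RPM in 3 and 4. Wee1, a cell cycle kinase, had 9.89 to 13.8 RPM in HFD, 2.80 and 2.84 RPM in the first pair, and 11.2 and 7.82 RPM in the second. Dbp, a transcription factor of clock output, had 93.2 to 123 RPM in HFD, 69.2 and 75.0 RPM in the first pair, and 114 and 82.8 RPM in the second, of which HFD+ASBTi 4 was below the HFD range. Cdkn1a, a cell cycle inhibitor, had 0.857 to 4.61 RPM in HFD, 3.73 and 5.68 RPM in the first pair, and 0.335 and 0.435 RPM in the second, the lowest of the 8 libraries. Values under about 1 RPM rest on few reads. Against HFD, the median of 16 core clock genes was -0.47 for the first pair and 0.00 for the second, and that of 17 output genes was -0.86 and 0.11. Over all 4 treated libraries the medians were -0.28 (-0.16 and -0.17 without HFD+ASBTi 1 and 2) and -0.42 (-0.22 and -0.25). In these lists 0 genes were called and 0 and 2 had an unadjusted p under 0.05, beside 7.82% of all genes. Chow C7 also stood apart from the other chow libraries, with Arntl at 6.25 RPM against 1.31 to 2.03 RPM and Per3 at 7.84 RPM against 15.6 to 25.1 RPM. The labels used here give no hour of collection, date or batch, so such a batch and the pair cannot be told apart.

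**Figure D4:**
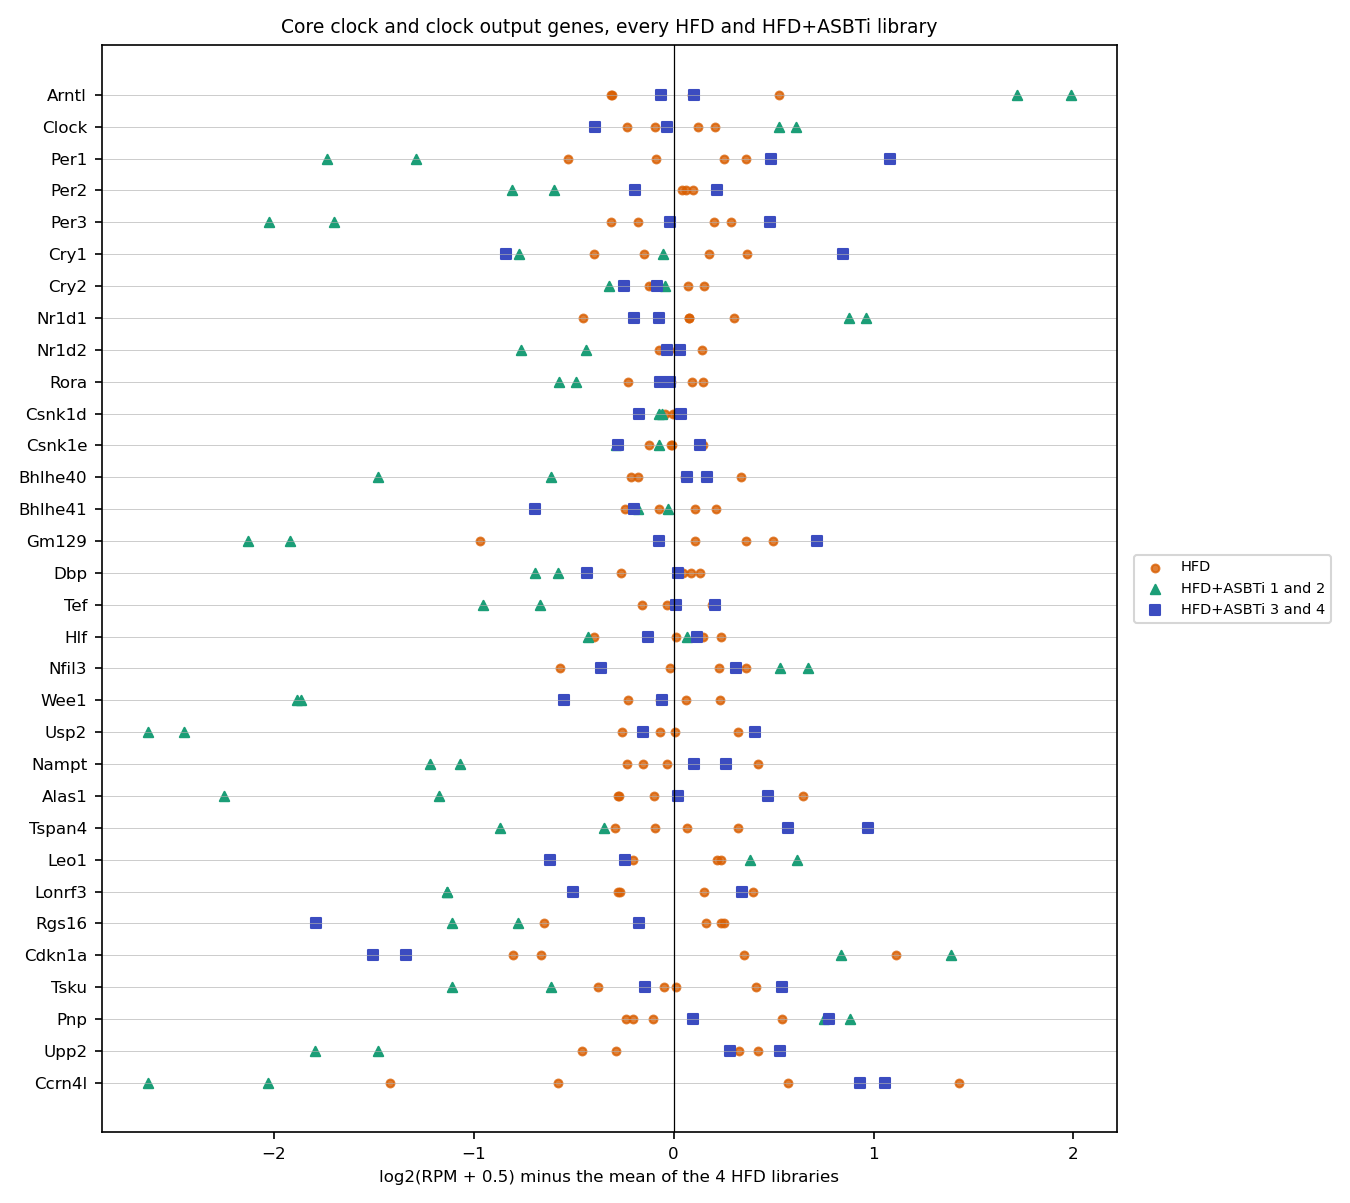
Difference in log2(RPM + 0.5) from the mean of the 4 HFD libraries (horizontal axis) for 32 core clock and clock output genes, with 1 point for each HFD and HFD+ASBTi library. HFD+ASBTi 1 and 2 (triangles) lie outside the HFD points in Arntl, Per1, Per3, Gm129, Wee1 and Usp2. HFD+ASBTi 3 and 4 (squares) lie within the HFD points for Arntl, and both lie above them for Per1 at 43.8 and 28.8 RPM.

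Clock factors bind the E-box and the D-box TTATGTAA. Promoter windows are shown for Ciart, Per1 and Per3, which split the pairs and were picked because they hold 1 of these motifs. Arntl, Nr1d1, Usp2 and Dbp had neither motif in their windows and are not shown. An E-box was found for 4 of 12 core clock genes with a window (33.3%) and for 3 of 15 output genes (20%), beside 8.09% of all genes with one. A D-box was found for 1 of 12 and 0 of 15, beside 1.11%. Ciart lies at chr3:95882179-95882478 on the minus strand, with 3 E-boxes that begin 116, 58 and 44 bases before the start. Per1 has 2 windows, and the 1 with a match lies at chr11:69098699-69098998 on the plus strand. Its 1 E-box begins 166 bases before the start. Per3 lies at chr4:151044616-151044915 on the minus strand, with 2 D-boxes that begin 205 and 158 bases before the start. Windows are RefSeq sequence on GRCm38.p6, and capitals mark the E-box in Ciart and Per1 and the D-box in Per3.
Ciart: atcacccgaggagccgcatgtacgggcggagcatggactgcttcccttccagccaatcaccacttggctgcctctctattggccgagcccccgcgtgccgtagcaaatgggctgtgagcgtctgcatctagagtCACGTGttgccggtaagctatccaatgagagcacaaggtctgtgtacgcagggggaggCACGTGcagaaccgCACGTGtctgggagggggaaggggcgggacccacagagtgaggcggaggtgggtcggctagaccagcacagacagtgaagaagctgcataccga
Per1: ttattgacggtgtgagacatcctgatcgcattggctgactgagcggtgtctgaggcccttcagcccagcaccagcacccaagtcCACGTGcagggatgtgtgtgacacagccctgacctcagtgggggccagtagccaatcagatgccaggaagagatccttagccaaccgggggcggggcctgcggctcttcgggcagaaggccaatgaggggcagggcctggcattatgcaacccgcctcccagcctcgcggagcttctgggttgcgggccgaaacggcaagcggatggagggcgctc
Per3: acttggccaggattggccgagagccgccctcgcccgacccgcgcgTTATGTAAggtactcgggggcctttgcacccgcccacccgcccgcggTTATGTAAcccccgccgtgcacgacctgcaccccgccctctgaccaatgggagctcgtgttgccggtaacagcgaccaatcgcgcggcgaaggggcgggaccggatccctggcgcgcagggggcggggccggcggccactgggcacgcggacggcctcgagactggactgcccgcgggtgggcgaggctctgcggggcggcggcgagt

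Fitted alone against HFD, HFD+ASBTi 1 and 2 gave 197 called genes (1.61% of those tested), 110 of them higher (0.9%) and 87 lower (0.711%). HFD+ASBTi 3 and 4 gave 10 (0.0818%), 1 higher (0.00818%) and 9 lower (0.0736%). At an unadjusted p under 0.05, 7.34% of genes were higher and 5.21% lower in the first pair, and 4.78% and 6.22% in the second. These fits share the HFD libraries, and each reuses treated libraries of the fit over all 4, so shared calls are partly built in. The difference between the pairs was not tested. All 6 genes called over the 4 libraries were among the 197 and 3 were among the 10, and 3 genes were called in both. Those 3 were Krt23, Pla2g6 and 4931408D14Rik. The median absolute log2 difference between 2 libraries was 0.162 within the first pair, 0.226 within the second, 0.241 to 0.262 between the pairs and 0.161 to 0.264 between HFD libraries. HFD+ASBTi 3 and 4 were the shallowest of the 8 libraries, and the part of depth in the pair values was not tested.

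Several metabolic genes separated the pairs as widely as the clock genes did. Por, the reductase that feeds electrons to cytochromes P450, had 160 to 254 RPM in HFD, 74.4 and 73.9 RPM in HFD+ASBTi 1 and 2, and 285 and 212 RPM in 3 and 4. Acot3, a peroxisomal thioesterase, had 27.3 to 46.8 RPM in HFD, 5.61 and 4.35 RPM in the first pair, and 73.4 and 23.1 RPM in the second. Elovl3, a fatty acid elongase, went the other way, with 12.5 to 37.1 RPM in HFD, 121 and 112 RPM in the first pair, and 22.6 and 22.2 RPM in the second. Over the 4 treated libraries Elovl3 had a log2 change of 0.97 with limma adjusted p = 0.691. Interferon-stimulated genes had a median of 0.01 over 32 genes, with 0.38 for the first pair and -0.25 for the second. Rsad2, an antiviral enzyme of that list, had 2.91 to 4.66 RPM in HFD, 7.83 and 9.85 RPM in the first pair, and 1.34 and 0.978 RPM in the second. Aqp4, a water channel, was lower in both pairs, at 5.31 and 6.38 RPM and at 2.45 and 2.17 RPM against 7.54 to 13.5 RPM in HFD (log2 change -1.35; limma adjusted p = 0.230).

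The length behind the deposited values matched the genomic span, introns included, so long genes have low RPKM, and they were kept. A filter at 0.5 RPKM in 4 libraries would leave out 6240 of the 12228 genes tested, whose median span was 41.9 kb against 10.7 kb for the 5988 it would keep. Of the genes it leaves out, Krt23 was the 1 called, and Krt23 entered the test only through its level in HFD. Among the genes left out, 6.33% had an unadjusted p under 0.05 against 9.37% of those it keeps. The median standard error of the log2 change was 0.181 for the former and 0.133 for the latter. Among 1339 genes with a span of at least 100 kb, 0 were called and 7.77% had an unadjusted p under 0.05, close to the 7.82% of all genes. Prlr, the prolactin receptor (span 125 kb), had 24.3, 26.2, 16.0 and 23.8 RPM in HFD and 31.3, 34.2, 40.5 and 40.5 RPM in HFD+ASBTi, or 0.180 against 0.292 RPKM. The groups did not overlap (log2 change 0.70 ± 0.16; limma adjusted p = 0.277). Pid1, a phosphotyrosine-interacting protein (248 kb), had 29.0 to 36.0 RPM in HFD and 64.7, 61.4, 39.0 and 45.9 RPM in HFD+ASBTi (log2 change 0.63; limma adjusted p = 0.308). Tns3, a focal adhesion protein (233 kb), had 26.0 to 31.6 RPM in HFD and 17.4 to 27.2 RPM in HFD+ASBTi (log2 change -0.53; limma adjusted p = 0.303).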

How the data were processed

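PolyA RNA of flash-frozen liver was sequenced with the Illumina TruSeq RNA kit, per the labels' protocols. The table the authors deposited holds RPKM of 33763 transcripts in 12 libraries. Alignment tool and build are Bowtie 0.12.7 and mm9, per the submitters' processing notes. How reads were counted, on which annotation, with which filters and by strand or not was not stated in the sources used. One chow column, C7, could be matched to its group only. Per gene the row with the highest mean was kept. RPKM was multiplied by the genomic span in GENCODE M21 or RefSeq (GRCm38; found for 99.8% of genes, 1 kb otherwise), since low values were whole multiples of 1 read on that length (78.0% to 81.2% within 0.05 of a read); this restores the weight of long genes, and depth estimated from it covers counting error only.

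The test was limma's moderated fit (version 3.58.1, under R 4.3.3), with a prior variance that follows the mean, on log2(RPM + 0.5), in 1 model of 3 groups (9 residual degrees of freedom), for genes of at least 1 RPM in at least 4 of 12 libraries, two-sided, with Benjamini-Hochberg adjustment over all 12228 genes. Changes of low genes are understated by the pseudocount. The fit was tested on simulated data. Intervals are 95%. Some genes stay in the fits and list counts but are not reported here by name. The genes, 41 gene lists, pairs and panel were chosen with earlier results of these data known. The naming rule took called genes without overlap (up to 12 per direction, at least 2 RPM in 1 group), up to 4 called members of lists with at least 3 called, or at least 1 in 4 tested genes called, up to 5 called genes per direction that a filter at 0.5 RPKM leaves out, a panel of 38, the core clock genes and 6 clock output genes; other genes, and all printed promoters but that of Fgfr4, were chosen after their values were seen. The 22 alternatives changed the pseudocount, filter, scaling, weights, model or libraries; the fit without chow C7 was added after seeing the data. Python 3.11.15, pandas 2.3.3, numpy 2.4.6 and matplotlib 3.10.9 were used.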

Additional observations from a re-analysis of the deposited data

Results flagged for a closer look

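In 4 of 116 groups of 4 libraries examined over the named genes, 1 library lay far from the other 3 by Dixon's gap test, where chance alone flags about 1 in 20. Sqle in HFD 3 was at 16.3 RPM against 5.92 to 6.95 RPM in the other HFD libraries. Srebf1 in HFD 1 was at 222 RPM against 209 to 211 RPM. Abcg8 in HFD 3 was at 79.1 RPM against 110 to 114 RPM. Rgs16, a regulator of G protein signalling under clock control, was at 115 RPM in HFD 4 against 202 to 215 RPM.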

How the results depend on the processing

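The count of calls, 6 (2 higher, 4 lower), was 5 or 6 with pseudocounts of 0.1 or 2 RPM, no filter, a mean of at least 5 RPM, the RPKM scale, 2 other scalings, voom and without chow C7; with median of ratios or quantiles 1 was higher. With the 8 libraries alone, 1 gene was called (0 higher, 1 lower); with array weights 23 (10 higher, 13 lower); with HFD+ASBTi 3 and 4 only 10 (1 higher, 9 lower); with 1 and 2 only 197 (110 higher, 87 lower). Leaving out 1 library gave 0 to 16 calls, 0 to 4 higher and 0 to 12 lower: 2 without HFD 2 or HFD+ASBTi 1, 1 without HFD 3, 16 without HFD+ASBTi 3 and 0 without HFD+ASBTi 4. The causes were not tested.

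Replicate numbers 1 to 4 in HFD and HFD+ASBTi did not pair the libraries (correlations of deviations -0.058, 0.114, 0.043 and 0.079; 1 of 4 HFD libraries correlated best with its own replicate number), and a fit with the replicate block gave 0 calls (0 higher, 0 lower).

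Over all alternatives the log2 change of a named gene changed sign in 38 cases. With HFD+ASBTi 1 and 2 only, the log2 change turned to 0.06 for Nr0b2, -0.04 for Nr1h4, -0.09 for Klb, -0.27 for Cyp2c29 and 0.06 for Cyp2b10. With 3 and 4 only it turned to 0.81 for Fasn, -0.01 for G6pc, -0.21 for Clock, 0.78 for Per1, 0.01 for Per2, 0.23 for Per3, 0.00 for Cry1, -0.13 for Nr1d1, 0.11 for Bhlhe40, 0.32 for Gm129, 0.25 for Alas1, 0.41 for Upp2, 0.11 for Tef and 0.20 for Tsku. With array weights it turned to -0.05 for Klb, -0.19 for Cyp2c29 and -0.13 for G6pc. Leaving out 1 library, the change crossed 0, with a lowest and highest value of -0.43 and 0.05 for Nr0b2, -0.07 and 0.12 for Klb, -0.56 and 0.23 for Fasn, -0.30 and 0.30 for Cyp2c29, -0.30 and 0.00 for Cyp2b10, -0.43 and 0.46 for G6pc, -0.85 and 0.09 for Per1 and -0.55 and 0.01 for Cry1. Cyp2b10 was at 0 to 0.302 RPM in HFD and 0 to 0.445 RPM in HFD+ASBTi, and passed the filter through chow (4.23 to 21.0 RPM). Genes under about 1 RPM rest on few reads, so their changes were not resolved at this depth.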

Other observations

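Further genes of hormones, receptors and conjugation are given here, chosen after their values were seen, and none passed the test. Csad, the decarboxylase that makes taurine for bile acid conjugation, had 19.4 to 46.8 RPM in HFD and 75.2, 68.3, 73.1 and 58.8 RPM in HFD+ASBTi. All treated libraries were higher than all HFD libraries and lower than chow, 123 to 151 RPM (log2 change 1.02; limma adjusted p = 0.214). Enho, which encodes the secreted peptide adropin, had 0.673, 1.08, 0.922 and 4.35 RPM in HFD and 5.09, 4.66, 5.29 and 14.8 RPM in HFD+ASBTi, with the fourth library of each group highest (log2 change 1.91; limma adjusted p = 0.214). Avpr1a, a vasopressin receptor, had 2.49 to 6.28 RPM against 6.74 to 12.1 RPM (limma adjusted p = 0.270), and Adrb3, a beta-adrenergic receptor, 6.21 to 9.52 RPM against 13.4 to 21.3 RPM (limma adjusted p = 0.131).

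In the other direction, Fabp2, the intestinal fatty acid-binding protein, had 47.2, 80.4, 68.0 and 66.0 RPM in HFD and 43.8, 39.2, 32.2 and 32.7 RPM in HFD+ASBTi, without overlap (log2 change -0.80; limma adjusted p = 0.214). Mmadhc, a protein of vitamin B12 trafficking, had 27.9 to 30.4 RPM against 21.6 to 22.9 RPM (log2 change -0.39; limma adjusted p = 0.131). Gys2, liver glycogen synthase, had 111, 92.8, 110 and 152 RPM in HFD and 53.5, 55.5, 88.9 and 80.5 RPM in HFD+ASBTi (log2 change -0.75; limma adjusted p = 0.310). Ccnd1, a cyclin of cell cycle entry, had 15.3, 16.7, 21.3 and 68.2 RPM against 7.32 to 13.5 RPM, with HFD 4 far above the others (limma adjusted p = 0.433).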
